A study of Mus musculus with 4 samples.

Results

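The cells described here are thymocytes of the autonomy library with no transcript of the main proliferation genes that carried many transcripts of Dtx1, Ptcra and Notch1. A barcode was taken when it held 1000 to 6000 unique molecules (UMIs), no UMI of Mki67 and Top2a, 3 or more UMIs of Cd8a plus Cd8b1 and no UMI of Itm2a, a gene induced by T cell receptor (TCR) signals, and when Dtx1, Ptcra and Notch1 together gave 4 or more UMIs. The rule found 891 such Notch-high cells among 3505 autonomy cells of the resting gate, 4587 autonomy barcodes and 8961 barcodes in the series. They were compared with 1830 Notch-low autonomy cells, which passed the same gate with a sum of 0 or 1, and 784 cells with a sum of 2 or 3 lay between. The 2876 turnover cells of the same gate are given beside them.

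Both conditions came from wild type mouse thymi 28 days after transplantation, sorted as a mixture of DN3-DN4, ISP and double positive (DP) thymocytes and profiled with a droplet assay of 5′ gene expression and a matched assay of rearranged TCR chains. In autonomy the thymus maintains T cell production from thymocytes already inside it, whereas in turnover incoming progenitors replace them. Each condition had 1 library per assay, and the labels did not give the hosts or how many animals were pooled. No transgene, drug or deletion was named for either condition.

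Notch1 on thymocyte progenitors is engaged by ligand on thymic epithelium, and its cleaved intracellular domain joins the DNA-binding protein RBPJ to switch on target genes that include Hes1, Dtx1, Ptcra and Il2ra. At the DN3 stage a productively rearranged TCR beta chain (TRB) pairs with the product of Ptcra, the pre-TCR alpha chain, and the signal of this complex, called beta selection, carries cells to the DP stage. Notch targets normally decline at that transition, and the alpha chain locus (TRA) is rearranged in resting DP cells.

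All measured genes of these cells shared their counts with the rule, so levels are descriptions and carry no test. With 1 library per condition no spread between animals could be measured. Levels are in CPM, the UMIs of a gene summed over the cells of a class, divided by the class total and scaled to a total of 1000000, so a level is relative to all UMIs and not per cell. Intervals in parentheses are 95% intervals, exact Poisson for levels, exact binomial for shares and conditional exact binomial for ratios. They cover counting error only and treat cells and UMIs as independent, although most cells shared a TCR chain with another cell. Ratios are Notch-high over Notch-low.

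The Notch-high cells summed to 2426129 UMIs, against 4177383 in Notch-low cells. Their median depth was 2514 UMIs and 1529 genes, against 2192 UMIs and 1392.5 genes in Notch-low cells and 1886.5 UMIs in turnover gate cells. Mitochondrial UMIs had medians of 2.60% and 2.48%. Xist was found in 346 Notch-high cells (38.8%) and 675 Notch-low cells (36.9%). Y-linked transcripts were found in 197 (22.1%) and 385 (21.0%), so both autonomy classes held cells of both sexes, in like shares. Among the 2876 turnover gate cells Xist was found in 0 and Y-linked transcripts in 1556 (54.1%). Values of turnover cells therefore differ from those of autonomy cells in sex as well as in condition. Xist and Y-linked transcripts were found together in 7 Notch-high cells and 1 Notch-low cell, and 4 and 3 cells had 3 or more productive TRB chains. Of the barcode sequences, 31 occurred in both libraries.

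Resting cells with this sum were nearly all from autonomy. They were 25.4% of the autonomy gate (24.0 to 26.9) and 4 of 2876 turnover gate cells (0.139%, 0.0379 to 0.356). A sum of 0 was found in 31.0% of autonomy and 83.6% of turnover cells. Among Notch-high cells the median sum was 6 and the highest 27, and 441 of them (49.5%) held at least 1 UMI of each of the 3 genes.

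**Figure D1:**
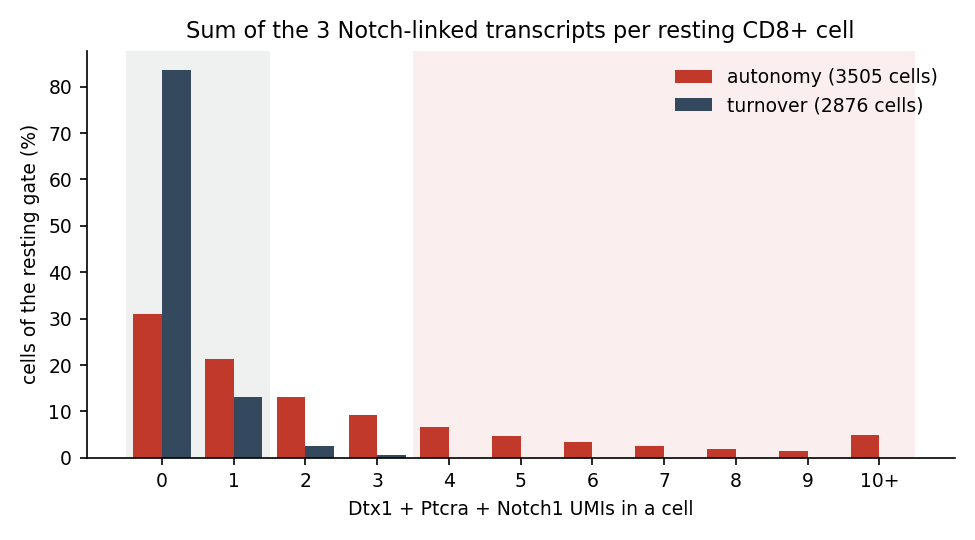
Share of resting gate cells (percent, linear axis) by the sum of Dtx1, Ptcra and Notch1 UMIs in a cell, for 3505 autonomy cells and 2876 turnover cells, with the last bin holding 10 or more. The red shading marks sums of 4 or more and the grey shading 0 or 1. Autonomy cells extend to 10 or more (4.85%), while 83.6% of turnover cells have a sum of 0.

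The 3 genes of the rule are given as values only. Dtx1, a Notch-induced ubiquitin ligase gene, stood at 805 CPM in Notch-high cells, against 52.4 CPM in Notch-low cells and 0.856 CPM in turnover gate cells. Ptcra stood at 1240.2 CPM in Notch-high cells, against 81.2 CPM in Notch-low cells and 75.3 CPM in turnover cells. Notch1, the receptor itself, stood at 528 CPM in Notch-high cells, against 44.3 and 25.3 CPM. The rule caps Notch-low cells at 1 UMI of the 3 genes, while turnover gate cells have no such cap. At the threshold, the 231 cells with a sum of 4 had 483 CPM of Dtx1, 753 CPM of Ptcra and 297 CPM of Notch1, and the 324 cells with a sum of 3 had 466, 496 and 246 CPM.

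Each of the 3 transcripts was also read in gate cells chosen by the other 2 alone, again as values only. In gate cells with 3 or more UMIs of the other 2 genes, against gate cells with none, Dtx1 stood at 655 and 160 CPM (ratio 4.10, 3.71 to 4.54). Ptcra stood at 996 and 248 CPM on the same terms (ratio 4.02, 3.72 to 4.36). Notch1 stood at 405 and 93.9 CPM (ratio 4.31, 3.78 to 4.93). Cell depth was not matched between these cells.

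The label of resting DP cells held by its markers. Rag1, the recombinase gene, stood at 1499.5 CPM in Notch-high cells, 1342 CPM in Notch-low cells and 1499 CPM in turnover gate cells. Cd4, the coreceptor gene left out of the gate, stood at 954, 920.2 and 937 CPM in the same order. Rag2 (ratio 1.05), Arpp21 (1166 and 1015 CPM) and Dntt, whose product adds untemplated bases at junctions (1.02), differed little. Of 22 measured genes in the DP list none was at least 1.5-fold higher and 1, Cd2, was lower (0.664), with a median log2 ratio of 0.04. Over all 7163 genes measured, 2.08% were at least 1.5-fold higher and 2.22% lower, with a median of -0.01.

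Cells with the DN3 marker Il2ra gave a scale for these levels. In 85 turnover cells with 3 or more Il2ra UMIs and no Cd8 UMI, Ptcra stood at 426 CPM (382 to 473), Notch1 at 370 CPM and Dtx1 at 32.2 CPM (21.0 to 47.1). In the 12 autonomy cells of the same kind Ptcra stood at 467 CPM (338 to 629.7), Notch1 at 511 CPM (375 to 679) and Dtx1 at 294 CPM (193 to 427). The Notch-high resting cells stood at 1240.2, 528 and 805 CPM, but they were chosen by these genes. Their place on this scale was therefore set in part by the rule, and no likeness is read from it. Their median depth was 2514 UMIs, against 6879 in the autonomy Il2ra cells, and CPM is not a level per cell. Il2ra, which chose the Il2ra cells, stood at 198 CPM in Notch-high cells, 1304.6 CPM in autonomy Il2ra cells and 967 CPM in turnover Il2ra cells. Notch3 was close, at 67.6 CPM in Notch-high cells and 60.6 CPM in the turnover Il2ra cells. Hes1 stood at 15.7 CPM in Notch-high cells, 119.6 CPM in autonomy Il2ra cells and 63.1 CPM in turnover Il2ra cells, which had no Cd4 UMI and a median of 8453 UMIs.

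The Ptcra promoter is shown because Ptcra is a known Notch target and is one of the 3 transcripts that define the cells. The window of 300 bases, from 250 before to 50 after the RefSeq start site, lies at chr17:46763663-46763962 on the minus strand of GRCm38.p6, and capitals mark TGGGAA, the core of the sequence that RBPJ binds.
Ptcra promoter: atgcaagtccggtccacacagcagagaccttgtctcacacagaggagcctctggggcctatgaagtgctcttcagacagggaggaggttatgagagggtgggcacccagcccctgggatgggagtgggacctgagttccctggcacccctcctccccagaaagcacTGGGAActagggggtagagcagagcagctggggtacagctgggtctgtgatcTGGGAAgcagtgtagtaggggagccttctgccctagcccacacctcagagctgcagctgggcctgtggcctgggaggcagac
The letters occurred at positions -84 and -32 from the start site. Searched on both strands, they occur in 25.5% of 27025 RefSeq promoter windows of this length and in 22.1% of 5675 windows of measured genes. The Dtx1 and Notch1 windows do not hold these letters. Of 8 windows found for the 12 genes with the highest ratios 2 held them, those of Gm266 and Tenm1.

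Outside the rule and gate genes, few genes differed between Notch-high and Notch-low cells by 2-fold. Of 7163 genes with 100 or more UMIs over both classes, 40 had a ratio of 2 or more (0.558%) and 46 a ratio of 0.5 or less (0.642%). With 1 cell per productive TRB chain and class, which left 3201 genes measured, these counts were 9 and 9, and with cells thinned to 1000 UMIs 21 and 17 of 4891. The higher genes were mostly of low abundance and only a few are known for Notch signalling. The lower genes included transcripts induced by TCR signals and TRAV segments.

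Exoc3l4, named for its likeness to a subunit of the exocyst complex, had the highest ratio. It had 122 UMIs in Notch-high cells, against 9 in Notch-low and 0 in turnover gate cells, which gave 50.3 CPM (41.8 to 60.04) against 2.15 CPM (0.985 to 4.09), a ratio of 23.3 (11.9 to 52.3). Arhgef10l, a guanine nucleotide exchange factor gene, stood at 134 CPM in Notch-high cells and 9.10 CPM in Notch-low cells, a ratio of 14.7 (10.47 to 21.1), and likewise had no UMI in turnover gate cells. Against a floor of 3 counts over the turnover class, Exoc3l4 was at least 97.9-fold and Arhgef10l at least 260.1-fold higher in Notch-high cells, and the lower limits of these ratios with the counting error of both classes were 78.5 and 210.3. Both were among the genes known to be high in this library, and of the 7 measured genes of that list, which was chosen on these samples, 4 were at least 1.5-fold higher and 2 lower. Exoc3l4 lies on chromosome 12 from 111417430 to 111431680 (GRCm38.p6) and is annotated as protein-coding.

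Gm266, a protein-coding gene on the same chromosome from 111484609 to 111485823, stood at 83.7 CPM in Notch-high cells and 12.2 CPM in Notch-low cells (ratio 6.85, 5.02 to 9.51), with no UMI in turnover gate cells. Nln, the gene of the peptidase neurolysin, stood at 88.6 and 12.7 CPM (ratio 6.98, 5.15 to 9.62). Rasal1, whose product turns Ras off by speeding GTP hydrolysis, stood at 38.3 and 7.66 CPM (ratio 5.004, 3.32 to 7.73). It lies on chromosome 5 from 120648040 to 120679597, next to Dtx1 (120680203 to 120711867), and whether reads of these neighbours were assigned by strand was not given.

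Nrp1, the coreceptor neuropilin-1, stood at 178 CPM in Notch-high cells, 38.1 CPM in Notch-low cells and 18.8 CPM in turnover cells (ratio 4.68, 3.89 to 5.65). Prss57, a serine protease gene (3.63), Gfra1, a receptor for a glial growth factor (3.24), Asap2, an activator of Arf GTP hydrolysis (3.22), Mzb1, known as a chaperone of plasma cells (3.16), and Tenm1, a teneurin (3.14), completed the 12 highest. Some of these ratios moved when 1 cell per productive TRB chain and class was kept. Prss57 then stood at 1.64 and Asap2 at 1.69, both under 2-fold, Gfra1 at 2.09 and Nrp1 at 2.55, while Arhgef10l stood at 35.2, Gm266 at 10.8 and Tenm1 at 6.77. Of the more abundant genes, 2 chosen here after their values were seen were Ly6d at 1932 and 729 CPM (ratio 2.65, 2.53 to 2.77) and Phlda1 at 566 and 206 CPM (ratio 2.74, 2.52 to 2.99).

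**Figure D2:**
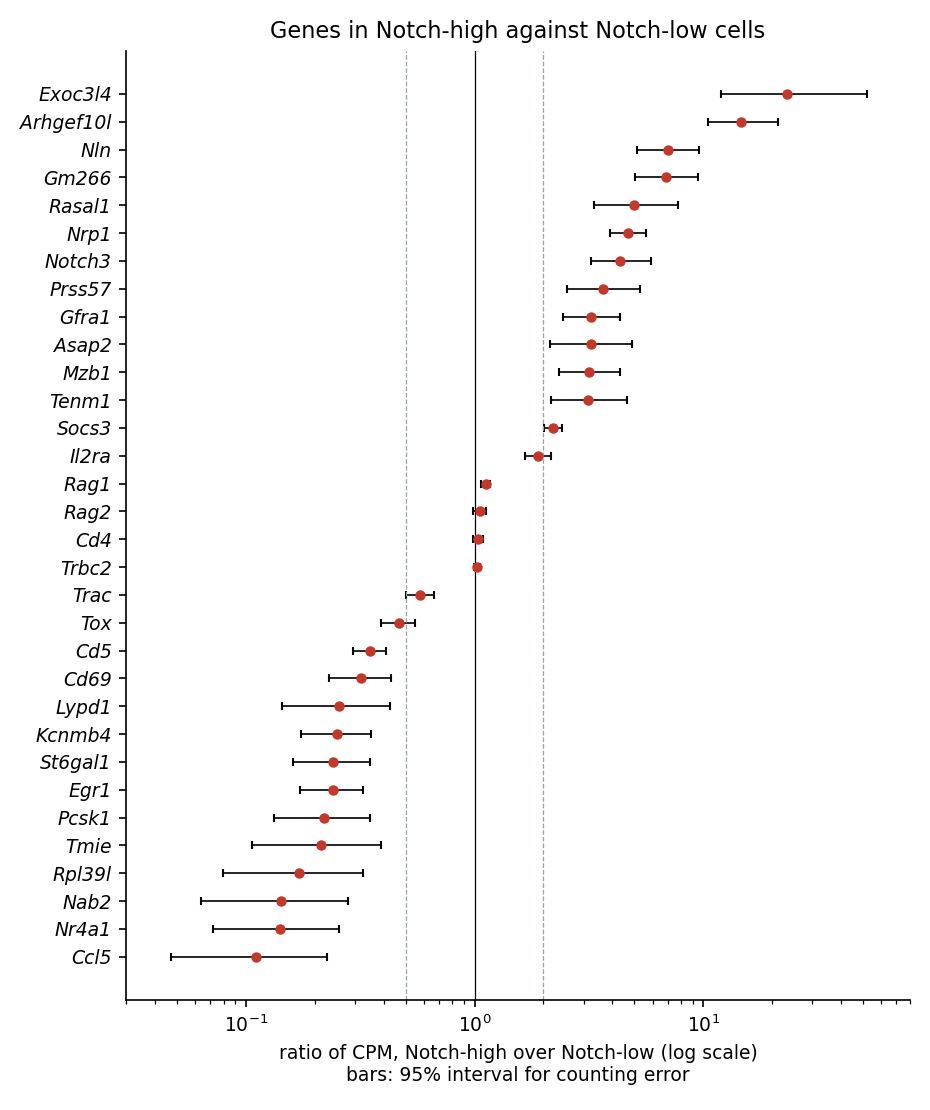
Ratio of CPM in Notch-high over Notch-low cells on a log scale, with bars for the 95% interval of counting error and dashed lines at 2-fold, for the 12 genes with the highest and the 10 with the lowest ratio and for further genes of the text. Exoc3l4 (23.3) and Arhgef10l (14.7) stand apart at the top, Cd4 and Rag2 lie near 1, and Ccl5 (0.111) is lowest.

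Among Notch receptors, mediators and targets other than the rule genes, few measured members differed. Notch3, a receptor that is itself a Notch target in thymocytes, stood at 67.6 CPM in Notch-high cells, 15.6 CPM in Notch-low cells and 4.11 CPM in turnover cells (ratio 4.34, 3.24 to 5.88). It was the only 1 of 21 measured members past 1.5-fold, with none lower and a median log2 ratio of 0.00. Rbpj, the DNA-binding partner of Notch, stood at 33.4 and 33.5 CPM, and Hes6 at 221 and 221 CPM. Targets with fewer than 100 UMIs were kept out of that count. Among them Hes1, a repressor gene induced by Notch, had 38 UMIs in Notch-high cells and 0 in Notch-low and turnover gate cells, at least 21.8-fold higher against a floor of 3 counts over the Notch-low class, with a lower limit of 16.9 from the counting error of both classes. Heyl, a related repressor gene, had 41 UMIs in Notch-high cells, against 7 in Notch-low and 0 in turnover cells (ratio 10.1, 4.48 to 26.6). Nrarp, a feedback inhibitor of Notch, had 4 and 11 UMIs (ratio 0.626, 0.145 to 2.11).

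Of 4 measured genes of the DN3 list 3 were at least 1.5-fold higher, Notch3, Myl10 (2.19) and Il2ra, the interleukin-2 receptor alpha chain. Il2ra stood at 198 CPM in Notch-high cells, 104 CPM in Notch-low cells and 14.2 CPM in turnover cells (ratio 1.90, 1.67 to 2.17). Its ratio was as low as 1.43 and as high as 2.12 in alternative settings, so it did not pass 1.5-fold in all of them. The DN3 marker Erg had 0 UMIs in Notch-high cells and 0 in Notch-low cells. Tcf3, the gene of the E protein E2A, was near equal at 255 and 272 CPM, as were Tcf12 (ratio 1.07) and Cd3e (1.01). The E protein inhibitors Id3 and Id1 went opposite ways. Id3 stood at 292 and 394 CPM (ratio 0.741, 0.677 to 0.809). Id1, with too few UMIs to count as measured, had 44 in Notch-high and 33 in Notch-low cells (ratio 2.30, 1.43 to 3.72).

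Socs3, a feedback inhibitor of cytokine receptors and the marker gene that the rule did not use, stood at 415 CPM (390.2 to 442) in Notch-high cells, 189 CPM in Notch-low cells and 15.7 CPM in turnover cells, a ratio of 2.20 (2.002 to 2.42). It was the only 1 of 19 measured interleukin-7 receptor, JAK-STAT and SOCS genes past 1.5-fold higher, and Il6st was lower (0.650). Of 17 quiescence and glucocorticoid response genes 2 were higher, Fkbp5 (204 and 80.7 CPM, ratio 2.52) and Foxo1 (1.53). In 3 lists a single member passed 1.5-fold, Bst2, an interferon-induced gene that also marks plasmacytoid dendritic cells (329 and 163 CPM, 2.01), B2m, the light chain of MHC class I (653 and 390.2 CPM, 1.67), and Xrcc6, which encodes the Ku70 subunit of DNA end joining (1026 and 655 CPM, 1.57). The medians of these lists were -0.09 for interferon response (18 genes), -0.07 for MHC class I (13 genes) and 0.16 for V(D)J recombination (13 genes). Myc stood at 33.4 and 12.4 CPM (ratio 2.68, 1.87 to 3.88), but at 0.932 when 1 cell per TRB chain and class was kept and at 1.27 when Notch-low cells were weighted to the depth of Notch-high cells.

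Several genes induced by TCR or pre-TCR signals were lower in Notch-high cells. Of 21 measured genes of the beta selection and pre-TCR list 6 were at least 1.5-fold lower and none higher, with a median log2 ratio of -0.16. Egr1, an early response transcription factor gene, stood at 19.4 CPM in Notch-high cells, 80.7 CPM in Notch-low cells and 57.3 CPM in turnover cells (ratio 0.240, 0.173 to 0.327). Nr4a1, an orphan receptor gene induced by TCR signals, had 12 and 146 UMIs in Notch-high and Notch-low cells (ratio 0.142, 0.0715 to 0.255), and Nab2, a corepressor of Egr factors, 9 and 109 (ratio 0.142, 0.0633 to 0.280). Cd5, a negative regulator whose level follows TCR signal strength, stood at 72.5 CPM in Notch-high cells, 208 CPM in Notch-low cells and 139 CPM in turnover cells (ratio 0.349, 0.295 to 0.411), a difference carried by cells with a productive TRA chain (ratio 0.198, against 0.889 without one). With 1 cell per productive TRB chain and class Egr1 stood at 0.385 and Cd5 at 0.542. Cd69 stood at 20.6 and 64.6 CPM (ratio 0.319), and Cd28 at 244 and 392.1 CPM (0.623).

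Trac, the constant gene of the alpha chain, stood at 108 CPM in Notch-high cells, 187 CPM in Notch-low cells and 216.5 CPM in turnover cells (ratio 0.576, 0.499 to 0.664). The beta chain constant genes Trbc1 (1.12) and Trbc2 (1.02) and the signalling genes Lck (1.03), Lat (1.02) and Zap70 (0.929) differed little. Tox, a transcription factor gene induced during selection, stood at 70.5 and 152 CPM (0.465). Of 6 measured genes of the mature single positive list 3 were lower, Ms4a4b (0.412), Ms4a6b (0.653) and Cd52 (0.661), and none higher (median log2 -0.54).

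The lowest ratios also included genes with no common theme in the lists used. Ccl5, a chemokine gene, had 8 UMIs in Notch-high and 124 in Notch-low cells (ratio 0.111, 0.0469 to 0.226). Rpl39l, a paralog of a ribosomal protein gene (0.170), Tmie (0.213), Pcsk1, a prohormone convertase gene (0.220), St6gal1, a sialyltransferase gene (0.241), Kcnmb4, a potassium channel subunit gene (0.251), and Lypd1 (0.255) followed. With 1 cell per productive TRB chain and class Pcsk1 stood at 0.657 and St6gal1 at 0.548, short of 2-fold, and Tmie at 0.492, Rpl39l at 0.468 and Lypd1 at 0.401, whereas Ccl5 stood at 0.0384. Lypd1 stood at 1.07 among cells with Xist and no Y-linked transcript. Tmsb10, an actin-binding thymosin gene chosen here after its values were seen, had the most UMIs among genes past 2-fold, at 1078 CPM in Notch-high and 2639 CPM in Notch-low cells (ratio 0.409, 0.391 to 0.426).

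Fewer Notch-high cells held any transcript of the TCR response genes. No UMI of Cd5, Cd69, Egr1 or Nr4a1 was found in 746 of 891 Notch-high cells (83.7%), against 1367 of 1830 Notch-low cells (74.7%). Among the cells with none of these UMIs 31 genes were at least 2-fold higher and 26 lower. Macrophage transcripts were a further measured difference, since 180 Notch-high cells (20.2%) and 249 Notch-low cells (13.6%) held 2 or more UMIs of the macrophage list. The list summed to 538 and 480 CPM, 0 of its 8 measured genes passed 1.5-fold either way, and the complement gene C1qa had 75 and 113 UMIs. Without these cells 35 genes were 2-fold higher and 36 lower. The counts of both of these subsets rest on fewer cells, so the genes measured also differ. They are not to be set against the 40 and 46 of 7163 genes above. Of 4 measured dendritic genes 1, Bst2, was higher, and of 2 B cell genes 1, Cd79b, stood at 64.7 and 36.4 CPM (ratio 1.78). The ribosomal protein, oxidative phosphorylation, glycolysis and G2/M lists had no member past 1.5-fold, and the S phase list had 2 of 14, Tyms (1.75) and Uhrf1 (1.73).

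Levels were also read over steps of the sum of the rule genes. The steps divide the sum that defined the classes, and many genes shown were chosen by their ratio between its ends. Their direction over the steps was therefore largely set in advance, and the values show only how graded the differences were. From a sum of 0 through 1, 2 to 3, 4 to 5, 6 to 9 and 10 or more, Arhgef10l stood at 4.46, 15.8, 38.1, 62.8, 146 and 250.5 CPM. Exoc3l4 stood at 0.811, 4.09, 5.75, 23.5, 40.6 and 119 CPM over the same steps, so most of its transcripts lay in the upper steps. Hes1 had its UMIs mainly in the top step, with 28 of its 38 Notch-high UMIs in the 170 cells with a sum of 10 or more, where it stood at 53.9 CPM (35.8 to 77.97).

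Notch3 stood at 10.9, 22.2, 32.9, 53.95, 67.6 and 94.4 CPM over these steps, and Socs3 at 147, 249.5, 280.5, 368, 435 and 476 CPM. Cd5 ran the other way, at 259.5, 134, 102, 80.4, 70.97 and 59.7 CPM, as did Tmsb10, at 3079, 2005, 1582, 1225, 1103 and 748 CPM. Cd4 lay between 838 and 990.2 CPM with no such order. The median depth of the cells was 2184 UMIs at a sum of 0 and 2761 at 10 or more.

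**Figure D3:**
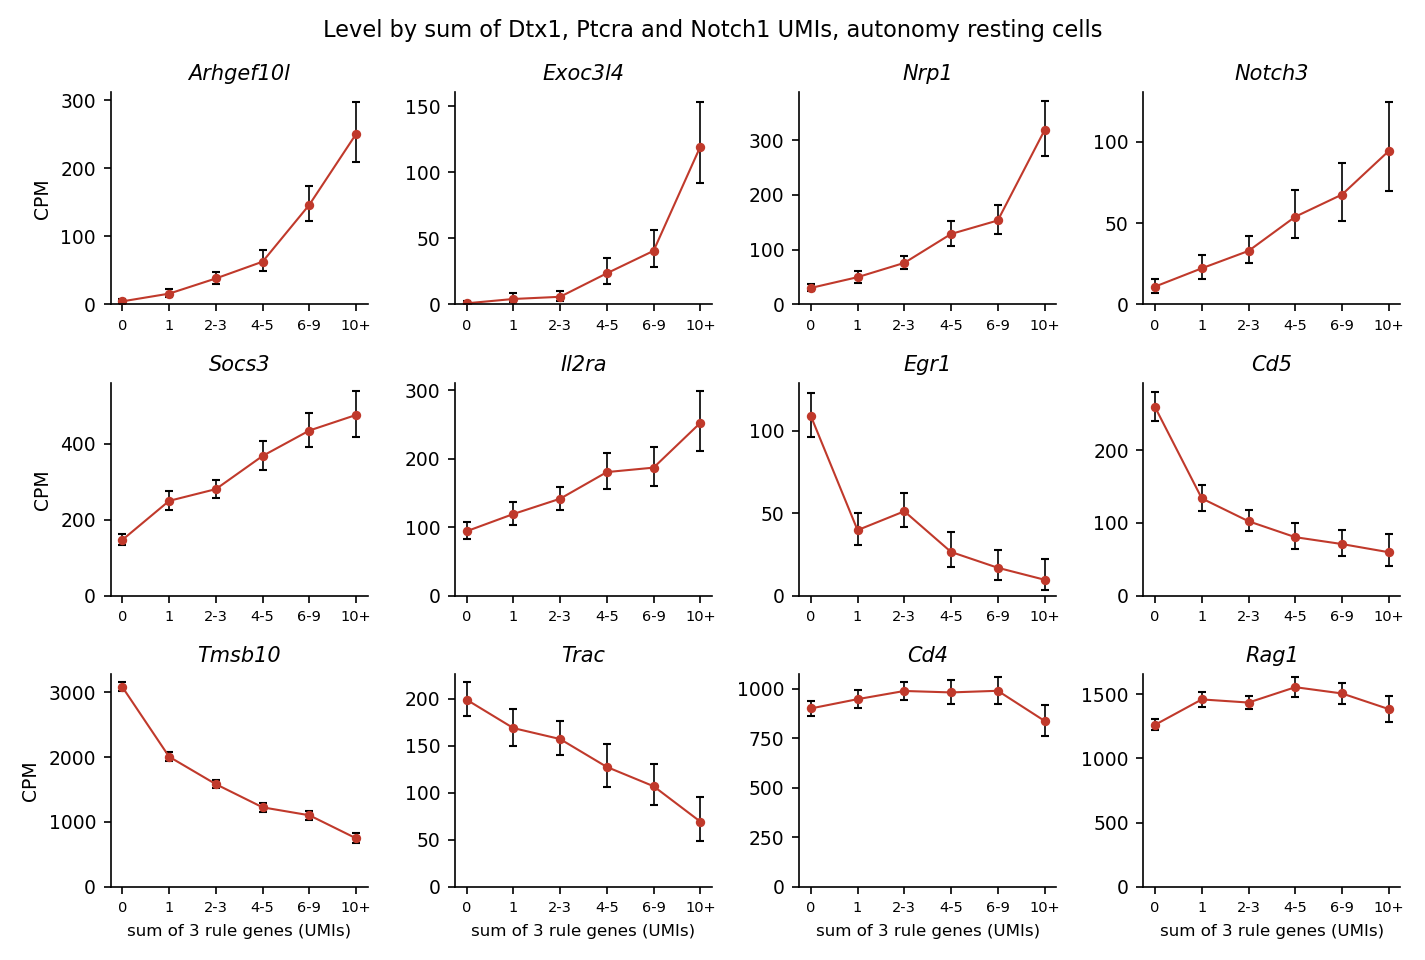
Level in CPM (linear axes from 0) of 12 genes in autonomy resting cells by the sum of Dtx1, Ptcra and Notch1 UMIs in a cell, with exact Poisson 95% intervals. Arhgef10l, Exoc3l4, Nrp1, Notch3, Socs3 and Il2ra stand higher at each step, Cd5, Tmsb10 and Trac lower at each step, Egr1 lower except between 1 and 2 to 3, and Cd4 and Rag1 show no such order.

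Notch-high cells with an Exoc3l4 UMI, a split chosen here after its values were seen, differed in their TRB state. Cells without one can still express the gene at this depth, and its level was graded over the steps above. The 80 Notch-high cells with an Exoc3l4 UMI had 298 CPM of Arhgef10l (229 to 381), against 118 CPM (104 to 133) in the other 811 Notch-high cells. They had 454 CPM of Tmsb10, against 1138 CPM. Their median depths were alike, at 2468 and 2520.0 UMIs, and Rag1 stood at 1612 and 1489 CPM. They also had more of the rule genes, with Ptcra at 1901 and 1177 CPM, Dtx1 at 974 and 789 CPM and Notch1 at 643 and 517 CPM. They were therefore not matched to the other Notch-high cells for the rule genes. An in-frame productive TRB chain was found in 17.5% of them (9.91 to 27.6), against 49.8% of the others (46.3 to 53.3).

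The V(D)J contigs were read separately from the counts that chose the cells. Fewer Notch-high cells had a TRB chain called productive in the deposited table, 494 of 891 (55.4%, 52.1 to 58.7), against 1457 of 1830 Notch-low cells (79.6%, 77.7 to 81.4) and 90.02% of turnover gate cells. Any TRB contig was found in 92.4% of Notch-high cells, 94.97% of Notch-low cells and 99.2% of turnover cells, so most cells without a productive chain did have TRB transcripts assembled. Only unproductive TRB contigs were found in 36.9% of Notch-high cells (329 cells) and 15.4% of Notch-low cells (281 cells).

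Some chains called productive were not in frame, a reading chosen after the data were seen. In 259 of 3563 autonomy TRB contigs called productive (7.27%) and 32 of 4093 turnover ones (0.782%), the usual start of the V segment's CDR3, its first 6 bases, or the usual end of the J segment, its last 9 bases, lay out of frame with the called CDR3. With these set aside, an in-frame productive TRB chain was found in 46.9% of Notch-high cells (418 cells), against 76.7% of Notch-low cells (1403 cells) and 89.7% of turnover cells. Chains called productive but out of frame were the sole productive call in 76 Notch-high cells (8.53%), 54 Notch-low cells (2.95%) and 9 turnover cells (0.313%).

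Read the other way, Notch-high cells were 17.8% of the 2348 gate cells with an in-frame chain (16.3 to 19.4). They were 43.9% of the 173 cells whose productive call was out of frame (36.4 to 51.7), 41.9% of the 785 cells with unproductive contigs only (38.4 to 45.5) and 34.2% of the 199 cells with no TRB contig. The intervals of the first group and of the out-of-frame and unproductive groups did not overlap, but they treat cells as independent. Many of these cells shared a TRB chain, so the intervals do not measure the spread between clones. The share of cells with an in-frame chain was 80.7% at a sum of 0 and 35.3% at 10 or more.

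**Figure D4:**
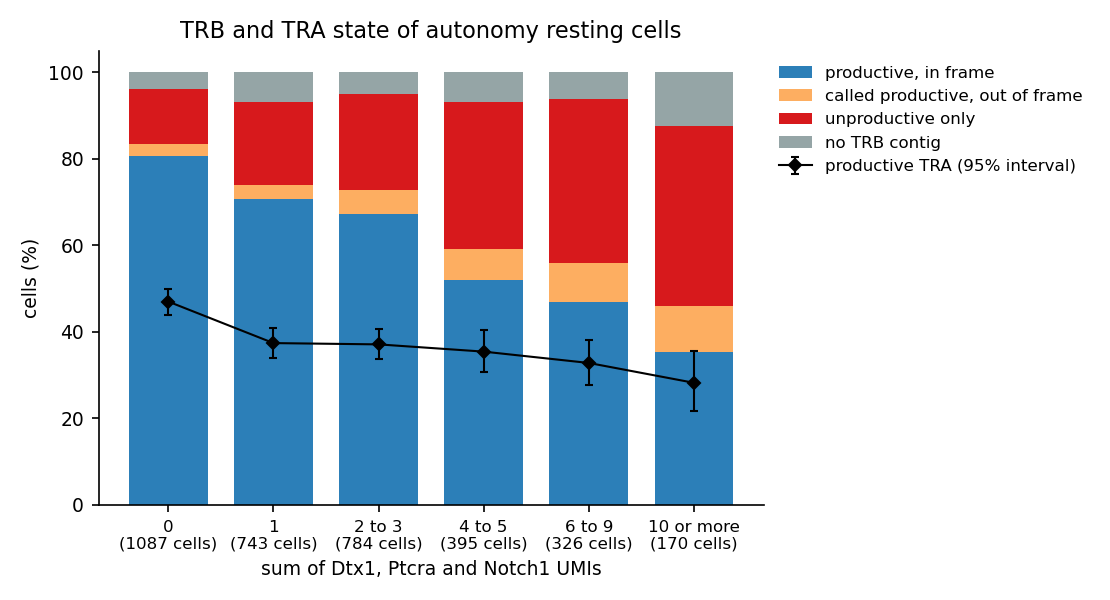
Share of autonomy resting cells (percent, stacked bars from 0) by TRB state for 6 steps of the sum of Dtx1, Ptcra and Notch1 UMIs, with diamonds for the share with a productive TRA chain and its 95% interval. The in-frame productive share is lower at each step, with 80.7% at 0 and 35.3% at 10 or more, and unproductive-only cells make up 41.8% at 10 or more.

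Several of the differences in expression were also seen within each TRB state. Among cells with an in-frame TRB chain (418 Notch-high and 1403 Notch-low), Arhgef10l stood at 73.0 and 3.65 CPM (ratio 20.03, 10.9 to 40.2), Notch3 at 63.9 and 12.5 CPM (5.13, 3.47 to 7.69) and Socs3 at 303 and 164 CPM (1.84, 1.61 to 2.11). Among cells without one (473 and 427), Arhgef10l stood at 193 and 29.3 CPM (6.58, 4.38 to 10.3), Notch3 at 71.2 and 27.1 CPM (2.63, 1.66 to 4.32) and Socs3 at 527 and 279.9 CPM (1.88, 1.62 to 2.19). Exoc3l4 had 23 and 1 UMIs in the first state and 99 and 8 in the second. Cd5 stood at 119.5 and 239.7 CPM with a chain (0.499) and at 26.2 and 90.3 CPM without one (0.290). Ccl5 had 2 and 3 UMIs without a chain (0.484, 0.0404 to 4.22), Pcsk1 had 8 and 12 (0.484, 0.171 to 1.29), and Myc stood at 21.6 and 13.4 CPM with a chain (1.61, 0.954 to 2.68), so for these no difference was detectable in that state. Of 6193 genes measured with a chain 18 were at least 2-fold higher and 34 lower, and of 4184 measured without one 15 and 8. Split by TRA instead, Cd5 stood at 71.5 and 362 CPM in Notch-high and Notch-low cells with a productive TRA chain (ratio 0.198, 0.149 to 0.257) and at 73.1 and 82.3 CPM in cells without one (0.889, 0.699 to 1.13). The interval without a TRA chain includes 1, so no difference in Cd5 was detectable there. Arhgef10l was higher in both, with ratios of 12.4 and 15.2.

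Productive TRA chains were also fewer and differed in their J segments. They were found in 33.1% of Notch-high cells (30.02 to 36.3), 43.1% of Notch-low cells (40.8 to 45.4) and 45.97% of turnover cells. With an in-frame TRB chain the shares were 38.3% and 45.1% in Notch-high and Notch-low cells, and without one 28.5% and 36.5%. TRAJ segments are numbered from the constant region outwards, and the first rearrangements of a locus tend to use high numbers. The median TRAJ number was 26 in 310 chains of Notch-high cells, 16 in 869 chains of Notch-low cells and 26 in 1458 chains of turnover cells. TRAJ40 or above made up 21.9% of Notch-high chains (17.5 to 26.96), 10.4% of Notch-low chains (8.41 to 12.6) and 23.7% of turnover chains. The same order of Notch-high and Notch-low held with an in-frame TRB chain (21.3% and 9.40%), while without one the shares were 22.7% (16.1 to 30.5) and 14.4% (9.43 to 20.6), with intervals that overlap. In the expression counts, TRAV segments summed to 628 CPM in Notch-high and 1110.3 CPM in Notch-low cells (ratio 0.565), with 23 of 24 measured segments below 1.

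Most cells of either class shared their TRB chain, defined by V, J and nucleotide CDR3, with another autonomy cell. Of cells with a chain called productive, 445 of 494 Notch-high cells (90.1%, 87.1 to 92.6) and 1290 of 1457 Notch-low cells (88.5%, 86.8 to 90.1) shared it, and the intervals overlap. Notch-high cells carried 205 different productive chains, so they were not 1 clone. Of 32 chains with 20 or more gate cells, the 25 in-frame productive ones had Notch-high shares of 3.13% to 32.7%, with a median of 17.2%. The 4 chains called productive but out of frame, 2 of them readings of 1 rearrangement, had shares of 39.5% to 54.1%, all above those 25. The 2 unproductive chains had 31.0% and 35.1%, and 1 chain with mixed calls 6.67%. The intervals of single chains were wide and many overlapped. Cells of 1 chain share their source, and some cells carried 2 of these chains.

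The chains below show the range, with capitals for the usual first 6 bases of the V segment's CDR3 where these were found. The TRBV13-2 and TRBV29 chains are the largest productive ones, the next 4 are unproductive or out of frame, and the TRBV1 chain is the in-frame one with the lowest Notch-high share.
TRBV13-2 TRBJ2-4, productive: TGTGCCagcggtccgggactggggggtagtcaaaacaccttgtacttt
TRBV29 TRBJ2-5, productive: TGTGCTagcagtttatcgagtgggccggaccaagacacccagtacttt
TRBV4 TRBJ2-3, unproductive: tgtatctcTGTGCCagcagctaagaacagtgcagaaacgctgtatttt
TRBV13-1 TRBJ2-4, out of frame: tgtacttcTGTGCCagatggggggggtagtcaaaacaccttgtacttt
TRBV13-1 TRBJ1-5, out of frame at V: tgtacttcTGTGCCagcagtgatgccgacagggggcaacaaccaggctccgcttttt
TRBV13-1 TRBJ1-5, out of frame at J: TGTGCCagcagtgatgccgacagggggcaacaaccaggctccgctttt
TRBV1 TRBJ2-7, productive: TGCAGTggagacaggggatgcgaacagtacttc
The TRBV13-2 and TRBV29 chains had 168 gate cells each, 159 of which carried both. Of the TRBV13-2 cells 35 were Notch-high (20.8%, 14.96 to 27.8) and 90 Notch-low. The TRBV4 chain also had 168 gate cells, of which 59 were Notch-high (35.1%, 27.9 to 42.8), and 28 of the 55 cells with the TRBV19 TRBJ2-4 chain carried it too.

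The out-of-frame TRBV13-1 TRBJ2-4 chain had 20 Notch-high cells of 37 (54.1%, 36.9 to 70.5). In it and in the TRBV4 chain the usual V start lies 8 bases into the called CDR3. The TRBV13-1 TRBJ1-5 rearrangement was called in 2 readings, which are not independent chains, 57 bases long with 20 Notch-high cells of 42 (47.6%, 32.0 to 63.6) and 48 bases long with 15 of 38 (39.5%, 24.0 to 56.6). By contrast the productive TRBV1 TRBJ2-7 chain had 1 Notch-high cell of 32 (3.13%, 0.0791 to 16.2) and 26 Notch-low cells. The rule genes did not keep 1 order over chains. Over all gate cells of a chain, Ptcra stood at 744 CPM for the unproductive TRBV4 chain, 892 CPM for the out-of-frame TRBV13-1 TRBJ2-4 chain and 73.8 CPM for the productive TRBV13-2 TRBJ2-4 chain, but Dtx1 at 429.9 CPM, 285 CPM and 467 CPM in the same order. Sex transcripts followed chains as well: Xist was found in 26 of the 37 cells of the out-of-frame TRBV13-1 TRBJ2-4 chain and in 3 of the 168 cells of the TRBV4 chain. The other out-of-frame chains also lay in Xist cells, with 28 of 42 and 24 of 38 for TRBV13-1 TRBJ1-5 and 15 of 21 for TRBV13-2 TRBJ2-7. Some in-frame chains did too, such as TRBV1 TRBJ2-7 with 25 of 32. Whether sex or source animal bears on the shares was not tested.

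**Figure D5:**
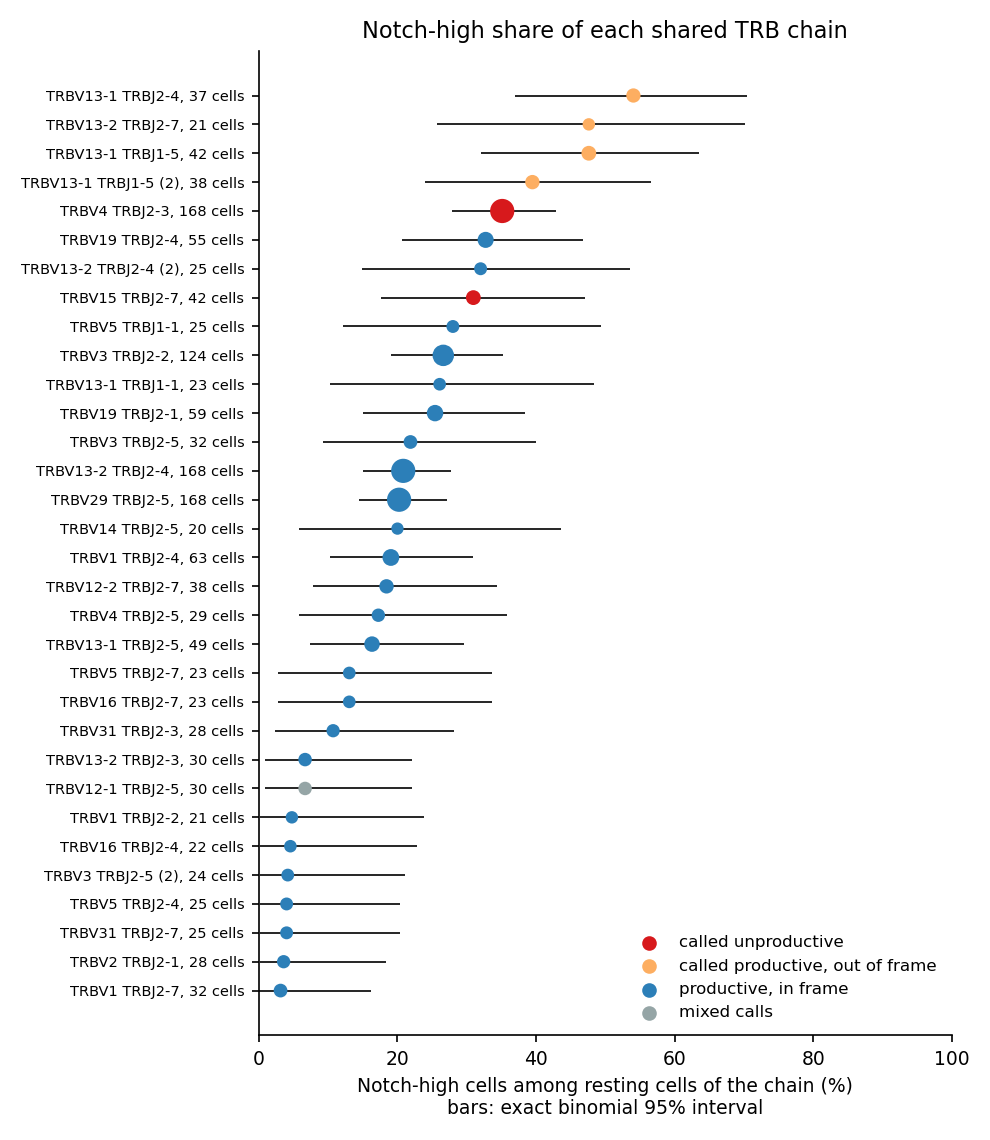
Share of Notch-high cells (percent) among the resting gate cells of each of 32 TRB chains with 20 or more such cells, with exact binomial 95% intervals, point area by number of cells, and a number in parentheses for a second chain of the same V and J. Out-of-frame chains (39.5% to 54.1%) lie above all in-frame productive chains (3.13% to 32.7%).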

How the data were processed

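The deposited tables held raw counts of UMIs per gene and cell barcode, and the deposited V(D)J tables held counts of UMIs and reads per assembled contig with segment and productive calls. Cell Ranger 3.0.2, Seurat 3.1.3.9002 and mm10 are named in the submitters' processing notes. Which annotation and cell calling they used is not given in the sources used here. The autonomy and turnover tables summed to 16388810 and 20163286 UMIs, and V(D)J contigs to 105865 and 177475 UMIs. Contigs were joined to cells by barcode, and 99.9% of V(D)J barcodes had expression counts.

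UMIs were summed over the cells of each class and divided by the class total. Genes needed 100 UMIs over Notch-high and Notch-low cells. The 3 rule genes, 5 gate genes, sex-linked genes and TCR segments were left out of the named genes, which were the 12 highest and 10 lowest ratios, a set always reported and up to 3 members of each gene list with the largest differences. The 2-fold counts leave out the rule, gate and sex-linked genes. The members and lists were chosen with earlier results of these data known. No doublet was removed or called. A TRB chain was V, J and nucleotide CDR3, and 1 unproductive chain with 20 or more gate cells is not reported here. The frame check looked for the most frequent first 6 bases per V segment and last 9 bases per J segment, and finds only some shifts.

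Counts were simulated for this comparison as independent Poisson draws per gene, without variation between cells or clones. In these counts 4-fold and 3-fold differences were recovered in 100% of 50 genes each. A ratio of 0.333 was recovered in 97.9% of 48 and of 0.25 in 100% of 43. Intervals covered 95.8% of 7128 true ratios. They assume the same model as the simulation, so it checks the calculation and not their coverage for cells of shared clones. Promoters came from RefSeq, GRCm38.p6, and 25166 of 31053 symbols matched its gene table. Alternatives varied the depth, scaling, rule, clones, filters and thresholds. Those within TRB states, sexes and cells without TCR response transcripts, the rule as CPM, the in-frame chains and the TRB shares without the largest chain were chosen after seeing the data. Sums and intervals were computed with scipy 1.17.1, numpy 2.4.6 and pandas 2.3.3 in Python 3.11.15, TMM factors with edgeR 4.0.16 in R 4.3.3, and figures with matplotlib 3.10.9.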

Additional observations from a re-analysis of the deposited data

How the results depend on the processing

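The counts of 40 genes at least 2-fold higher and 46 lower were 21 and 17 with cells thinned to 1000 UMIs (4891 genes measured), 9 and 9 with 1 cell per productive TRB chain (3201 genes), 156 and 222 with a minimum of 20 UMIs, 8 and 7 with 500, and 149 and 159 at 1.5-fold. With 6 or more rule UMIs, 496 cells were Notch-high and 72 of 6777 genes lower. Within cells with an in-frame TRB chain 18 of 6193 genes were higher, and without one 15 higher and 8 lower of 4184. Without TCR response transcripts 26 were lower, within Xist cells 22 higher, and within cells with Y-linked transcripts 10 higher and 13 lower. Counts given without a number of genes measured are not shares and are not to be set against 40 and 46. Beyond the smaller number of genes measured, the cause was not tested. Without the largest TRB chain 42 and 43 were found, with TMM factors 40 and 45 of 7163, and with depth weighting 39 and 42 of 6369.

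The share with a productive TRB chain in Notch-high cells was 59.3% with 3 or more rule UMIs, 46.9% in frame and 51.1% in cells with Y-linked transcripts. In Notch-low cells it was 77.65% with 2 or more UMIs per contig, 83.1% weighted to depth, 76.7% in frame and 86.2% in cells with Y-linked transcripts. Shared chains were 85.1% and 93.8% of Notch-high and 85.4% and 93.4% of Notch-low cells with Xist and with Y-linked transcripts. All contigs were of high confidence. Of 691 values for 39 named genes over 18 alternatives 555 were labelled as the same, 134 as moved and 2 as reversed. The reversed values were Myc (0.932 with 1 cell per chain) and Lypd1 (1.07 in Xist cells). Trbc1, Dntt and Cd3e, with main ratios of 1.12, 1.02 and 1.01, also fell below 1 in some alternatives, at 0.947, 0.944 and 0.999. Among cells without an in-frame productive TRB chain Rag1 stood at 0.924 and Cd4 at 0.978. No paired analysis was possible because each condition had 1 library per assay. Depth limits genes under 100 UMIs.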
